A study of Mus musculus with 3 samples.

Results

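The genes described here encode the LC3 and GABARAP proteins of the autophagosome (Map1lc3a, Map1lc3b, Gabarap, Gabarapl1 and Gabarapl2), the cargo and mitophagy receptors Sqstm1, Bnip3 and Bnip3l, and the initiation factors Ulk1 and Becn1. They were chosen by gene symbol, with earlier results of these data known. All 10 were found, each on 1 row, among the 24481 gene rows of the study. Messenger RNA of skeletal muscle was profiled by 3' end sequencing in mice of the outbred ICR stock, 42 days after birth. The study's question is fatigue and how a leaf extract of the dwarf bamboo Sasa quelpaertensis acts on it. There were 3 libraries, 1 per group, namely exercise with a treatment labelled SQH (exercise plus SQH), an exercise control, and a control. The labels give no muscle name, exercise protocol, SQH dose, sex or number of animals behind a library, and no group carries a transgene or mutation in its label.

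Macroautophagy encloses cytoplasm in a double membrane and delivers it to the lysosome. The ULK1 kinase complex starts the process and the Beclin 1 lipid kinase complex marks the membrane, after which LC3 and GABARAP proteins are joined to phosphatidylethanolamine on it. Receptors such as p62, BNIP3 and NIX hold cargo or mitochondria on one side and LC3 or GABARAP proteins on the other. In skeletal muscle the pathway is known for clearing mitochondria and protein during fasting, exercise and atrophy, and FoxO transcription factors are known there as activators of several of these genes in mice. Messenger RNA levels do not measure autophagic flux, since LC3 and p62 proteins are themselves degraded in the lysosome.

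All levels below are the deposited log2 values, on which a difference of 1 is a 2-fold ratio. The 3 libraries held about 12.4, 8.14 and 10.8 M reads with SQH, in the exercise control and in the control. A gene was called higher or lower at a difference of 2-fold or more, among the 7857 rows whose mean linear level was at least 66.5, and all 10 genes were among these. With 1 library per group there is no replicate error and no p-value. Differences are given ± the standard error expected from read counting, which is approximate, treats reads as independent molecules and leaves out the variation between animals and between library preparations. Skeletal muscle markers were high throughout, with 10 of 10 markers between 14.20 and 19.01 on the log2 scale. The exercise control library stood apart from the others in slow-twitch fibre transcripts, whose summed linear level over 10 markers was 444811 with SQH, 48949 in the exercise control and 561125 in the control. Its 8 nerve and Schwann cell markers summed to 4430, against 1346 with SQH and 1249 in the control. The SQH and control libraries differed in other markers. Of 8 adipocyte markers, 3 passed the minimum level and all 3 were higher with SQH (median 0.72, Cfd 1.22). Of 8 fibroblast markers, 5 were higher with SQH and 3 lower (Postn 1.56). Of the 10 skeletal muscle markers, 4 were higher with SQH and 6 lower, none by 2-fold. Against the exercise control, Myh4 was lower with SQH (-1.16). In bulk muscle, fewer cells of a type and less RNA per cell cannot be told apart. What these marker differences contribute to the values of any gene below was not tested.

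Gabarapl1 was the only one of the 10 genes past the 2-fold threshold, and only in exercise plus SQH against the control. Of all rows tested, 1.76% were called higher in that comparison. In the exercise control against the control, 3 of the 10 were at least 1.5-fold higher (Gabarapl1, Sqstm1 and Map1lc3b), as were 10.1% of all rows. Bnip3 was 1.5-fold lower there, as were 15.5% of all rows. The other genes differed by smaller amounts, and Becn1 had the smallest range over the libraries, 0.18. The upstream sequences of Gabarapl1 and Bnip3 are shown because their values have, of the 7 genes with an entry in the RefSeq promoter table, the widest gap from the control with SQH and the lowest exercise control value relative to the control. Each line gives the 250 bases before the RefSeq start on the gene's own strand in GRCm38.p6, with capitals marking a match to ATAAACA, a FOXO-type motif, or to CACGTG, the E-box.
Gabarapl1, chr6:129532942-129533191, plus strand: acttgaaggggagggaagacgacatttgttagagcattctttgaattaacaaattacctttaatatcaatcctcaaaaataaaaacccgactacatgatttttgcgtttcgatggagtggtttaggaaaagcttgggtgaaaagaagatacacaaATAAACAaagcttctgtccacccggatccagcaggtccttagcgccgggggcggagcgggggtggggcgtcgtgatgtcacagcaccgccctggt
Bnip3, chr7:138909507-138909756, minus strand: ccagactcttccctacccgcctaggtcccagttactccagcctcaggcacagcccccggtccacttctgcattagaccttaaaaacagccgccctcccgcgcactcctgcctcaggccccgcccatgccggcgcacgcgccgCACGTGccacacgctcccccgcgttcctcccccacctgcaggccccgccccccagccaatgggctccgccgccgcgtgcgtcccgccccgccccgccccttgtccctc

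The motifs were searched on both strands of these 250 bases. In Gabarapl1, ATAAACA lay on the plus strand at positions -95 to -89 from the start, and 4.16% of all 32851 promoters of the same length held that motif on either strand. In Bnip3, CACGTG lay at -108 to -103, and 6.02% of promoters held it. ACGTG, the core of the hypoxia response element, was found on both strands inside that E-box and is in 16.6% of promoters. ACGTG also had 1 match each in Gabarap and Gabarapl2. GCGTG, the other form of that core, had 5 matches in Map1lc3b, 3 in Bnip3 and 1 in Ulk1, and is in 28.2% of promoters. None of the 7 upstream stretches held the FOXO form GTAAACA (3.17% of promoters), the antioxidant element core TGACNNNGC (10.2%) or the core of the lysosomal CLEAR element, GTCACGTG (1.85%). A match is a run of letters and not a shown binding site, and no factor's binding was measured here.

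Among the GABARAP genes, Gabarapl1, whose protein is one of the ubiquitin-like proteins conjugated to the autophagosome membrane, had the widest range of the 10 genes. It stood at 11.44 with SQH, 11.05 in the exercise control and 10.25 in the control, from about 3623, 1790 and 1293 reads. Both exercise libraries were above the control, and the SQH library was the highest. With SQH it was 2.29-fold higher than in the control (log2 difference 1.20 ± 0.047), and 73 of the 7857 rows tested had a larger difference. The exercise control was above the control by 0.80 ± 0.053, and the SQH library above the exercise control by 0.39 ± 0.042, neither of which reached 2-fold. The gene lies on chromosome 6 from 129533160 to 129542346 on the plus strand (GRCm38). The non-coding gene 1700101I11Rik on the other strand shares 570 exonic bases with it, from 129531950 to 129533817, at the end of Gabarapl1 away from the poly(A) tail. That partner was at 3.42, 2.27 and 2.71 with SQH, in the exercise control and in the control, where Gabarapl1 was at 10.25 or more.

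Gabarap, the founding member of its family, stood at 10.37 with SQH, 9.88 in the exercise control and 10.07 in the control. The SQH library was highest and the exercise control lowest, by 0.49 ± 0.062 between them. Against the control, Gabarap differed by 0.30 ± 0.055 with SQH and by -0.19 ± 0.067 in the exercise control. It lies on chromosome 11 from 69991143 to 69994951. Gabarapl2, also known as GATE-16, had levels of 9.35, 9.63 and 9.48 in the same order, with the exercise control highest and SQH lowest. Its differences were -0.29 ± 0.075 for SQH against the exercise control, 0.15 ± 0.076 for the exercise control against the control and -0.14 ± 0.072 for SQH against the control. Gabarapl2 lies on chromosome 8 from 111940703 to 111953612. By deposited level, the 3 GABARAP genes therefore ordered the libraries in 3 different ways. The differences of Gabarapl2 from the control were near the limit of counting error, so the place of the control in its order is uncertain.

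Of the LC3 genes, Map1lc3a stood at 12.35 with SQH, 11.94 in the exercise control and 11.50 in the control. This is the same order of libraries as for Gabarapl1. With SQH it was 1.79-fold above the control (0.84 ± 0.031), and 234 rows tested had a larger difference, yet it was not called. The steps were 0.40 ± 0.031 for SQH against the exercise control and 0.44 ± 0.036 for the exercise control against the control. Map1lc3a lies on chromosome 2 from 155276297 to 155278073. Map1lc3b, which encodes LC3B, the form most used as an autophagosome marker, was at 9.94 with SQH, 10.20 in the exercise control and 9.52 in the control. Here the exercise control was highest, at 1.60-fold of the control (0.68 ± 0.069), and SQH lay between them, at 0.42 ± 0.065 above the control and -0.26 ± 0.061 from the exercise control. Map1lc3b lies on chromosome 8 from 121590361 to 121598760 and shares 58 exonic bases at its 3' end with Zcchc14 on the other strand. Zcchc14 stood at 7.93, 7.96 and 7.47 with SQH, in the exercise control and in the control, and strand handling is not given, so part of the reads at that end may belong to either gene.

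Summed over the 5 LC3 and GABARAP genes, the linear level was 10945 with SQH, 8971 in the exercise control and 6643 in the control. Of the 5, 4 were above the control in each exercise library. The exceptions were Gabarapl2 with SQH and Gabarap in the exercise control. The SQH library was above the exercise control for Map1lc3a, Gabarap and Gabarapl1 and below it for Map1lc3b and Gabarapl2.

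**Figure D1:**
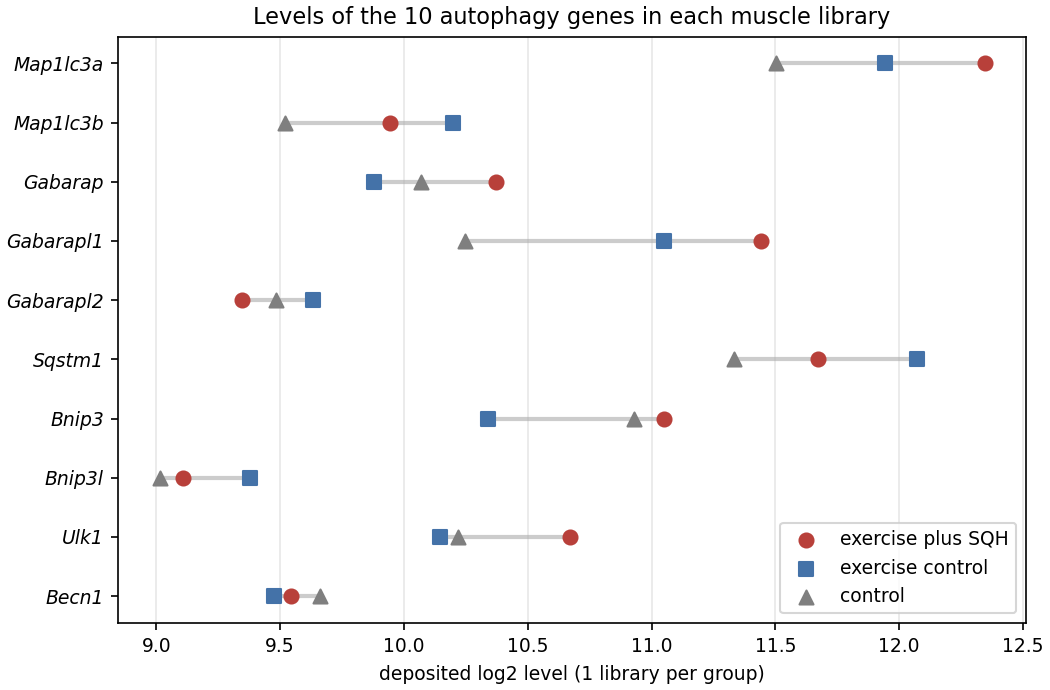
Deposited log2 level of each of the 10 genes (x axis) in the exercise plus SQH (circles), exercise control (squares) and control (triangles) libraries, 1 library per group, with a grey line over the range. Gabarapl1 spans the widest range, with 11.44 with SQH and 10.25 in the control, and Becn1 the narrowest.

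Among the receptors, Sqstm1 encodes p62, which binds ubiquitinated cargo. Its level was 11.67 with SQH, 12.07 in the exercise control and 11.33 in the control. The exercise control was 1.67-fold above the control (0.74 ± 0.036), with 509 rows tested showing a larger difference, and it was the highest library. With SQH the gene was 0.40 below the exercise control (-0.40 ± 0.033) and 0.34 ± 0.035 above the control. Sqstm1 lies on chromosome 11 from 50199366 to 50210827 on the minus strand. Its 3' end shares 580 exonic bases with Mrnip on the other strand, listed under the older symbol 3010026O09Rik at 3.52 with SQH, 0 in the exercise control and 2.22 in the control, where Sqstm1 was at 11.33 or more.

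Bnip3 encodes an outer mitochondrial membrane receptor of mitophagy that is induced by hypoxia. It stood at 11.05 with SQH, 10.34 in the exercise control and 10.93 in the control. The exercise control was the low library, at 0.66-fold of the control (-0.59 ± 0.054). The SQH library was 1.63-fold above the exercise control (0.71 ± 0.052), the widest gap of the 10 genes in that comparison, and 0.12 ± 0.042 from the control. The slow-twitch markers were low in the same library, with 10 of 10 called lower there than in control muscle, as were 5.33% of all rows tested. The part of these markers in the Bnip3 values was not tested. Bnip3 lies on chromosome 7 from 138890836 to 138909519 on the minus strand. The last 300 bases of its coding transcripts match 4 annotated pseudogenes (Gm16439, Gm6532, Gm14506 and Gm9419) at 95% identity or more over at least 150 bases. They also match the long non-coding RNA gene AC160336.1 at 96% identity over 300 bases in the opposite orientation, and the antisense gene Gm45507 shares 504 exonic bases. How reads with several matches were counted is not given, so the level of Bnip3 is uncertain to that extent.

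Bnip3l encodes NIX, the receptor that removes mitochondria from maturing red cells and also acts in muscle. Its levels were 9.11 with SQH, 9.38 in the exercise control and 9.01 in the control. As for Sqstm1, the exercise control was highest (0.36 ± 0.087 over the control). The SQH library lay close to the control (0.095 ± 0.082) and -0.27 ± 0.081 from the exercise control. The highest library of Bnip3l was thus that of Sqstm1, and not that of its paralogue Bnip3. Its SQH and control values were near the limit of counting error, so which of them is lowest is uncertain. The 8 erythroid markers, from a lineage that expresses Bnip3l, summed to 9973 with SQH, 10177 in the exercise control and 10588 in the control. Of these 8 markers, 4 passed the minimum level. In the exercise control 3 of the 4 were lower than in the control and 1 was higher (median -0.28), none by 2-fold. Their part in the Bnip3l values was not tested. Bnip3l lies on chromosome 14 from 66985239 to 67008877.

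Of the initiation genes, Ulk1 encodes the kinase that AMPK activates and mTORC1 restrains. It stood at 10.67 with SQH, 10.15 in the exercise control and 10.22 in the control. The SQH library was the high one, by 0.52 ± 0.056 over the exercise control and 0.45 ± 0.051 over the control. The exercise control and the control differed by -0.073 ± 0.062. Ulk1 lies on chromosome 5 from 110784488 to 110810097. Becn1, the gene of Beclin 1, had levels of 9.54, 9.48 and 9.66 in the same order, and differed by 0.066 ± 0.075 between SQH and the exercise control, -0.18 ± 0.077 between the exercise control and the control and -0.12 ± 0.068 between SQH and the control. Becn1 lies on chromosome 11 from 101285952 to 101302286 on the minus strand, and its last 300 bases lie inside Cntd1 on the other strand, which shares 3104 exonic bases with it. Cntd1, known for its role in meiosis, was at 9.40 with SQH, 9.38 in the exercise control and 9.53 in the control, and strand handling is not given, so part of the reads at that end may belong to either gene.

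In the order of deposited levels, which in a 3' library hold no length term, Map1lc3a had rank 1 with SQH and in the control, and Sqstm1 had rank 1 in the exercise control. Bnip3l had rank 10 in all 3 libraries. Gabarapl1 had rank 3 with SQH and in the exercise control and rank 4 in the control, where Bnip3 had rank 3. Some neighbours in the control differed by less than counting error, such as Gabarapl1 and Ulk1 (about 1293 and 1268 reads) and Map1lc3b and Gabarapl2 (about 781 and 761 reads).

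Set against all rows tested, exercise plus SQH against the control had 1 of the 10 genes called higher and none called lower. Of all rows tested, 1.76% were called higher and 1.26% lower (138 and 99 rows, or 167 and 75 with equal linear sums). The median difference of the 10 genes was 0.32, against -0.015 over all rows, and 8 of 10 lay above 0, as did 48.7% of all rows. In the exercise control against the control no gene of the 10 was called, where 2.95% of rows were called higher and 5.33% lower (232 and 419 rows, or 293 and 348 with libraries centred on their medians). The 10 genes had a median of 0.26, against -0.045 over all rows, and 6 of 10 lay above 0, as did 46.3% of rows. In exercise plus SQH against the exercise control again none of the 10 was called, beside 5.68% of rows called higher and 2.33% lower. The median was 0.23, against 0.026 over all rows, with 6 of 10 above 0 and 52.1% of rows above 0. The 3 comparisons share libraries and are not separate results. Since the 10 genes were chosen with earlier results of these data known, their contrast with all rows is a description only.

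At 1.5-fold, the counts in the exercise control against the control were 3 of 10 higher and 1 of 10 lower, and 10.1% and 15.5% of all rows passed in those directions. The 1 lower gene, Bnip3, passed on the deposited scale only and not under the other scalings. With SQH against the control 2 of 10 were higher (Gabarapl1 and Map1lc3a), as were 7.41% of rows, and none was lower, as were 6.36%. With SQH against the exercise control 1 of 10 was higher (Bnip3), as were 14.8% of rows, and none was lower, as were 9.28%.

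**Figure D2:**
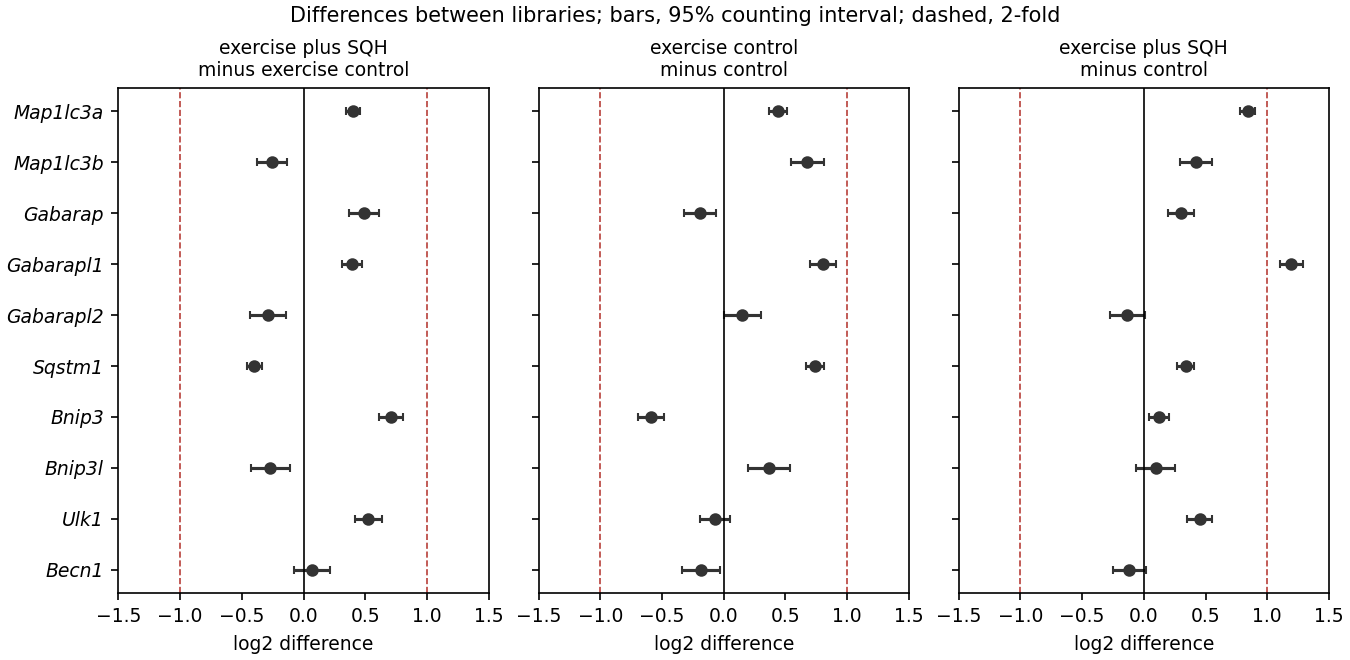
Log2 difference of each of the 10 genes (x axis) in exercise plus SQH minus exercise control, exercise control minus control, and exercise plus SQH minus control. Bars span the approximate 95% interval of counting error and dashed lines mark 2-fold. Only Gabarapl1 lies past a dashed line, in exercise plus SQH minus control.

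**Figure D3:**
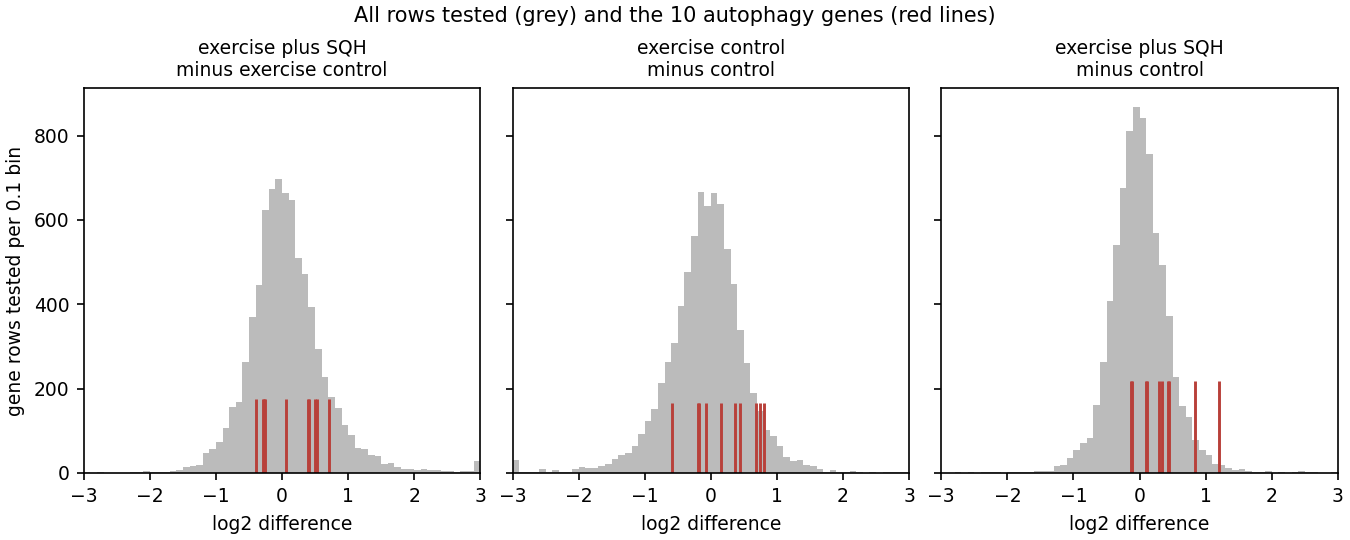
Number of tested rows per bin of 0.1 in log2 difference (grey bars, with the end bins holding all rows beyond them) for each comparison, and the 10 genes as red lines whose height has no meaning. The medians of the 10 genes, 0.23, 0.26 and 0.32 from left to right, lie above those of all rows.

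The rest of the pathway was covered by 115 other genes in 6 lists, of which 98 passed the minimum level. With SQH against the exercise control 1 was called higher and 3 lower (1.02% and 3.06%, beside 5.68% and 2.33% of all rows tested). In the exercise control against the control 2 were called higher and 1 lower (2.04% and 1.02%, beside 2.95% and 5.33%). With SQH against the control 2 were called higher and none lower (2.04% and 0%, beside 1.76% and 1.26%). Their medians in those comparisons were -0.058, 0.038 and -0.0040, against 0.026, -0.045 and -0.015 over all rows.

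Among 22 genes of the ULK complex, the class III lipid kinase complex and phagophore growth, 19 passed the minimum and Nrbf2, which encodes a subunit of the Beclin 1 kinase complex, was the only one called. It stood at 6.29 with SQH, 7.76 in the exercise control and 6.32 in the control. The exercise control was the high library, by 1.44 ± 0.19 over the control, and SQH was 1.46 lower than the exercise control (-1.46 ± 0.18). With SQH against the control no gene of the list was called, and the widest differences were those of Ambra1 (-0.71 ± 0.12), a Beclin 1 partner, and Atg2a (-0.47 ± 0.072), a lipid transfer protein.

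Of the 11 genes that process and conjugate LC3 and GABARAP proteins, 8 passed the minimum. Atg10, the enzyme that helps join ATG12 to ATG5, was the only one called, at 7.47 with SQH, 6.01 in the exercise control and 7.56 in the control. It was the exercise control that was low (-1.55 ± 0.22 from the control), and SQH was higher than it by 1.46 ± 0.22. Atg5 (0.56 ± 0.16) and the LC3 protease gene Atg4b (-0.55 ± 0.12) had the widest differences of SQH from the control and were not called.

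Of 22 other receptors and regulators of mitophagy and of autophagy of the endoplasmic reticulum, 19 passed the minimum and none was called in any comparison. Their medians were 0.0080 for SQH against the exercise control, 0.10 for the exercise control against the control and 0.23 for SQH against the control. Ccpg1, a receptor for endoplasmic reticulum, stood at 9.21, 9.93 and 8.97 with SQH, in the exercise control and in the control, and the exercise control lay 0.95 ± 0.080 above the control and SQH -0.72 ± 0.072 from the exercise control. The ubiquitin-binding receptor Nbr1, a relative of Sqstm1, was 0.61 ± 0.12 above the exercise control with SQH. Ncoa4, the ferritin receptor, lay 0.70 ± 0.24 above the control in the exercise control and 0.79 ± 0.22 above it with SQH. Tollip, also a ubiquitin-binding adaptor, lay 0.83 ± 0.090 above the control with SQH.

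Fusion with lysosomes was covered by 15 genes, 13 past the minimum and none called. The widest differences were those of the tethering subunit Vps39 (-0.96 ± 0.14) and of Tecpr1 (0.64 ± 0.20) for SQH against the exercise control, of Vps11 (0.92 ± 0.25) and Epg5 (0.78 ± 0.23) for the exercise control against the control, and of Epg5 (0.83 ± 0.21) and Vps39 (-0.54 ± 0.14) for SQH against the control.

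In the list of MiT/TFE factors and lysosomal genes, 20 of 23 passed the minimum. With SQH against the control, the proton pump subunit genes Atp6v1h (8.56 with SQH and 7.30 in the control, 1.26 ± 0.13) and Atp6v1a (9.59 and 8.50, 1.09 ± 0.087) were higher. Neither was called against the exercise control, where Atp6v1h stood just short of the threshold at 0.998. Npc1, the lysosomal cholesterol exporter gene, was at 9.68 with SQH, 10.68 in the exercise control and 9.36 in the control. The exercise control was higher than the control by 1.32 ± 0.067. With SQH the gene was lower than in exercise control muscle by an amount that just reached the threshold (-1.001 ± 0.059). Tfeb, the transcription factor of lysosome genes, had levels of 11.06 with SQH, 11.33 in the exercise control and 10.92 in the control. Its differences were -0.27 ± 0.041, 0.41 ± 0.044 and 0.14 ± 0.042 for SQH against the exercise control, the exercise control against the control and SQH against the control, none called. As for Sqstm1 and Map1lc3b, the exercise control was the highest library and the control the lowest.

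Of 22 upstream regulators, 19 passed the minimum and 1 was called. This was Bcl2, whose protein binds and restrains Beclin 1, at 5.62 with SQH, 6.66 in the exercise control and 6.42 in the control. The SQH library was lower than the exercise control (-1.04 ± 0.24), and its difference of -0.80 ± 0.24 from the control was not called. These values stand for about 64 reads with SQH, 85 in the exercise control and 91 in the control. The called difference is within counting error of the threshold, so the call is uncertain. Foxo1, a forkhead factor, was at 9.05, 8.46 and 9.37 with SQH, in the exercise control and in the control (-0.92 ± 0.10 for the exercise control against the control). Sesn1, an mTORC1 inhibitor, was -0.86 ± 0.17 in the same comparison. Ddit4, also an inhibitor of mTORC1, was at -0.77 ± 0.070 for SQH against the control. Foxo3, which is known to activate autophagy genes in mouse muscle, was below the minimum level. It was listed at 2.20 with SQH, from about 6 reads, and at 0 in both other libraries.

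**Figure D4:**
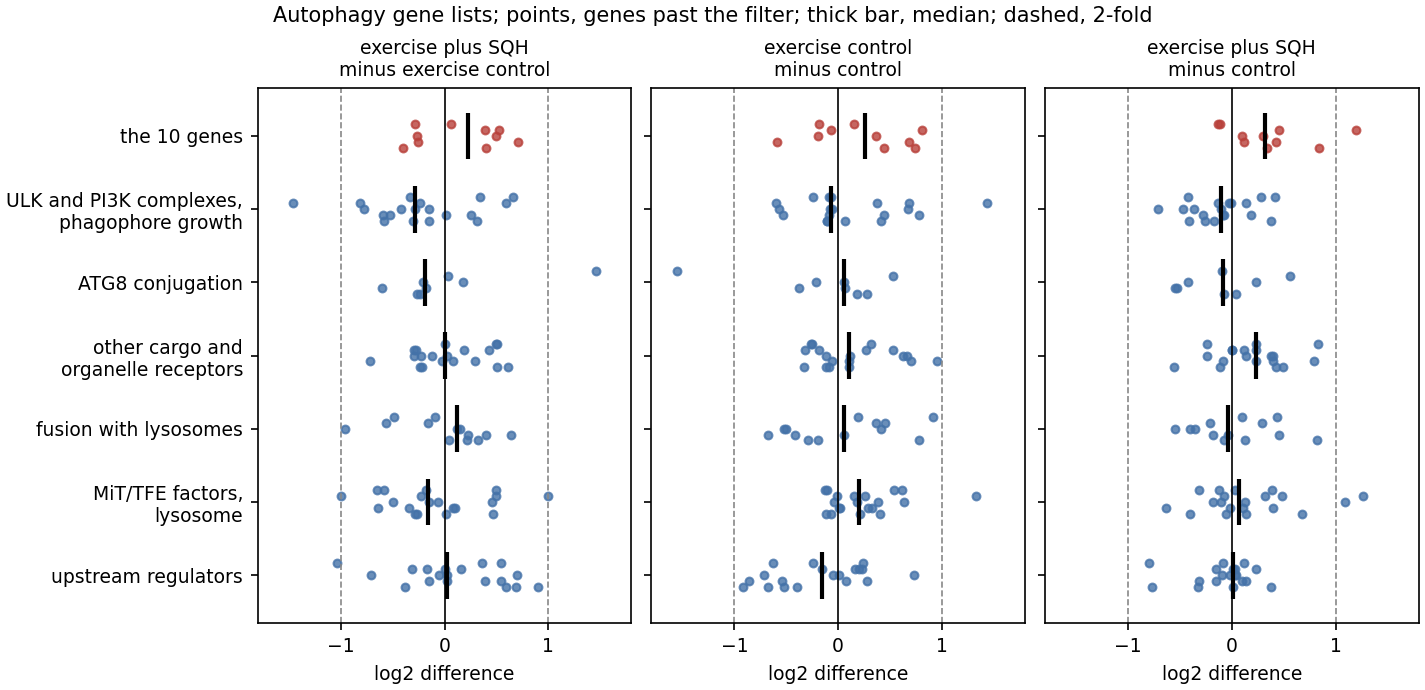
Log2 difference (x axis) of the 10 genes (red) and of the genes of the 6 pathway lists that passed the minimum level (blue) in the 3 comparisons, with thick bars at the list medians and dashed lines at 2-fold. The called genes outside the 10 lie beyond the dashed lines, among them Nrbf2 and Atg10 in both comparisons that hold the exercise control.

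The genes whose pattern over the 3 libraries lay closest to that of Gabarapl1 were Smarcd1, Pan3, Snai3, Kdsr and Crem, by the root mean square distance of log2 values centred on each gene's mean. Smarcd1, a chromatin remodelling subunit gene, was the closest, at a distance of 0.015, with 6.53 with SQH, 6.16 in the exercise control and 5.37 in the control. Snai3, a zinc finger factor gene, was at 10.18, 9.86 and 8.91 in the same order, at a distance of 0.060. With 3 libraries, 16 named genes lay within 0.1 of Gabarapl1, so the closeness is a description of these libraries. No counting error was set on the distances. That error is wider at the low levels of Smarcd1 than at those of Gabarapl1, so the order of closeness is uncertain.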

How the data were processed

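Lexogen QuantSeq 3' libraries were made from 500 ng of total RNA, per the labels' protocols, and read on a NextSeq 500. Bowtie2, edgeR and mm10 are named in the submitters' processing notes. No counter, annotation or strand setting is named. The authors deposited log2 values, 1 library per file, whose normalization is not stated. Low values, made linear, fell near whole multiples of a step (0.768 with SQH, 1.18 in the exercise control, 0.939 in the control), and linear sums divided by it gave the approximate reads. Values near multiples were not exact, so no count model was fitted. Within 0.2 of a step lay 85.4% of the low values with SQH, 96.2% in the exercise control and 100% in the control. The approximate reads and counting errors are therefore least secure for the SQH library.

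The size rule (2-fold, mean linear level in the upper part of the 15714 rows above 0 in some library, split at their median) made the calls. The 10 genes and lists were chosen with earlier results of these data known. Named from each pathway list were up to 4 called genes per comparison, or the 2 widest differences where none was called, plus Tfeb. Foxo3 was named outside that rule, for its known role. Nearest patterns were the 5 closest to the gene with the widest range. Positions and overlaps came from GENCODE M21 (GRCm38), with 95.7% of rows matched by symbol, near-identical 3' ends from BLAST 2.17.0, and promoters from RefSeq (GRCm38.p6). Rubcn was found under an older symbol. Python 3.11.15 was used.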

Additional observations from a re-analysis of the deposited data

How the results depend on the processing

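No paired analysis was possible because each group has 1 library, and leaving out a library removes its group. In the 5 alternatives that change a value (4 scalings and 1 added unit before the log), the called difference of Gabarapl1 (SQH against the control) ran from 1.195 to 1.26. Of the 30 differences of the 10 genes, 29 kept their sign in all 5, and the exception was Becn1 with SQH against the exercise control, 0.066 as deposited and -0.007 with libraries centred on their medians. The medians of the 10 genes moved at most to 0.16 from 0.23 for SQH against the exercise control, to 0.33 from 0.26 for the exercise control against the control and to 0.38 from 0.32 for SQH against the control, each by more than 1 counting standard error and within the 95% counting interval.

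Calls at 1.5-fold among the 10 genes were 1 higher with SQH against the exercise control, 3 higher and 1 lower in the exercise control against the control, and 2 higher with SQH against the control. Counts over all rows moved with the filter and the fold, and the rows added without a filter are those of low level. For SQH against the exercise control they were 2558 higher and 1638 lower with no filter (15714 rows), 166 and 52 with a stricter minimum level (3929 rows), and 1159 and 729 at 1.5-fold. For the exercise control against the control they were 1841 and 2418, 75 and 158, and 796 and 1216. For SQH against the control they were 1872 and 1495, 36 and 22, and 582 and 500. Under the other scalings all counts over all rows stayed within 1.5 times of these comparisons' counts on the deposited scale. Depth limits the rows near the minimum level most.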
